A study of Mus musculus with 39 samples.

Results

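The comparison described here is the last 3 days of mouse pregnancy that the study sampled: islets of mice at pregnancy day 18.5, close to birth, against islets of mice at day 15.5. Its members are the 4 arrays titled for day 18.5 and the 4 titled for day 15.5, which is 8 of the 39 arrays of the series, and they were chosen by those titles alone. Both groups are pancreatic islets of wild-type C57bl6/J mice with no treatment named, and pregnancy day is the difference that the labels give. The labels call the 4 arrays of a day biological replicates. The age of the mice, and whether 1 array holds the islets of 1 mouse or a pool, are not given in the sources used here. Total RNA was labelled with biotin and hybridized to Affymetrix arrays, and each gene has a log2 level on each array. The other arrays of the C57bl6/J series, from non-pregnant mice, days 3.5, 6.5, 9.5 and 12.5, and 10 days post partum, helped to estimate the spread of each gene and give the time course. The Pdx1-creLate and control littermate arrays were not used except in 1 alternative fit.

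Islets adapt to pregnancy under placental lactogens and prolactin, which act through the prolactin receptor, the kinase JAK2 and the transcription factor STAT5. In mouse islets the beta cells respond by dividing, by making serotonin with the enzyme tryptophan hydroxylase (Tph1) and by secreting more insulin at a given glucose level. Division is strongest around the middle of pregnancy and wanes towards term, while the demand for insulin persists until birth.

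The arrays carried islet RNA on both days. The level of Ins2, the insulin gene measured here, was 12.7 on all 8 arrays. Glucagon (Gcg) lay at 13.9, 13.8, 13.9 and 13.8 in day 18.5 islets and 13.9, 13.8, 13.9 and 13.9 in day 15.5 islets, somatostatin (Sst) at 13.5, 13.3, 13.5 and 13.4 against 13.6, 13.4, 13.5 and 13.5, and islet amyloid polypeptide (Iapp) at 13.9, 13.8, 13.8 and 13.9 against 13.8, 13.8, 13.8 and 13.8. None of these hormones was called between the days by limma's test. Their levels lay towards the top of the range of values on the arrays. Whether the arrays can register a change at such levels was not tested. The missing calls therefore do not show that hormone RNA was the same on both days. Any 2 of the 8 arrays correlated at between 0.985 and 0.996 over all genes. The arrays differed in how widely their values were spread: the standard deviation over all genes of 1 array was 1.85 to 1.91 at day 18.5 and 1.72 to 1.82 at day 15.5, with no overlap, and the lowest of the 31 C57bl6/J arrays was day 15.5 replicate 2. This spread therefore moves with the contrast, and the main results below are also given with it as a covariate. In bulk islets, a change in the number of cells of a type and a change in RNA per cell cannot be told apart.

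**Figure D1:**
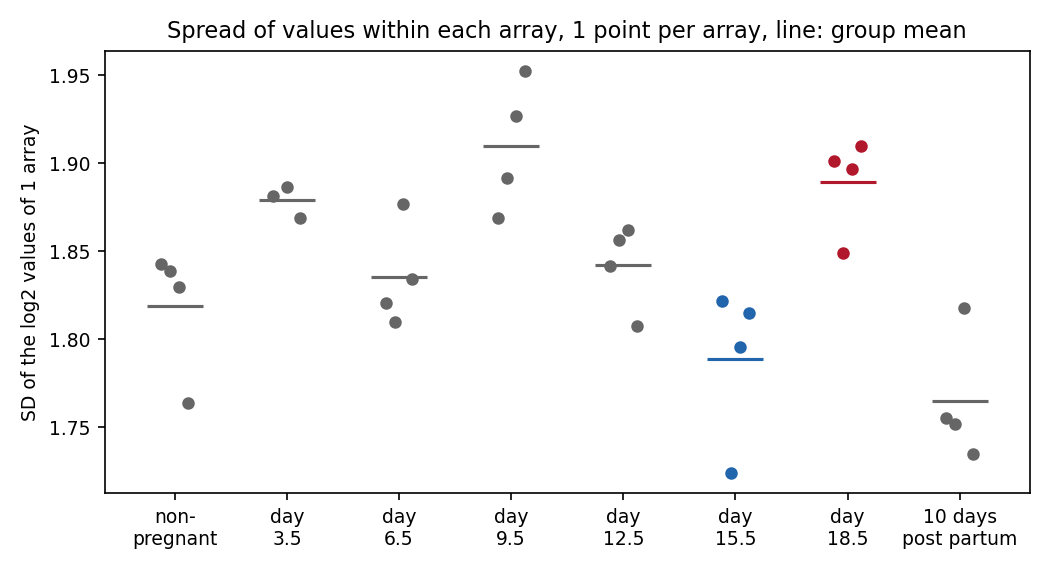
Standard deviation of the log2 values of all genes on 1 array (vertical axis), by group in order of time (horizontal axis). Each point is 1 array and each line a group mean, with day 18.5 in red and day 15.5 in blue. The day 18.5 arrays lie between 1.85 and 1.91, above all day 15.5 arrays, which lie between 1.72 and 1.82.

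Many genes moved a little and few moved far. Of 19938 genes, 2053 (10.3%) were called between day 18.5 and day 15.5 with limma at an adjusted p under 0.05, 1213 of them (6.08%) higher and 840 (4.21%) lower at day 18.5. The median size of a called difference was 0.33 on the log2 scale. Only 5 called genes differed by 2-fold or more: Fbxw24, Rny1, Snord33 and Adgrg6 were higher and Ifnz was lower. Among the called genes, 812 higher and 457 lower ones had all 4 day 18.5 arrays beyond all 4 day 15.5 arrays, a separation that 11.9% of all genes showed. The direction of a call went with brightness. Of the 4987 dimmest genes, with mean levels up to 4.93, 17 were called higher and 324 lower, whereas of the 4985 brightest, with mean levels from 7.65, 676 were higher and 20 lower. The median difference was -0.13 among the dimmest genes and 0.15 among the brightest. With the standard deviation of each array as a covariate these medians were -0.0032 and -0.00089. The shares of all genes that stand beside the counts of lists below are not matched for brightness.

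The call count changed with the treatment of the arrays' spread and with single arrays. After quantile normalization, which gives every array the same distribution, 228 genes (1.14%) were called, 218 of which were among the genes above. With each array centred on its median, 803 were called, 247 higher and 556 lower, which turned the balance between rises and falls. The centring left every difference between the days as it was, because the mean of the array medians was the same on both days, and it changed the spread between arrays of a day. With the standard deviation of each array as a covariate no gene was called (0.0%), 1469 genes had an unadjusted p under 0.05 and the lowest adjusted p was 0.0645, while 1967 (95.8%) of the called genes kept their sign. Leaving out day 15.5 replicate 2 left 68 called genes and leaving out day 18.5 replicate 4 left 88. With day 18.5 replicate 1, day 18.5 replicate 3 or day 15.5 replicate 3 left out, the counts were 459, 465 and 594. Outside the fit with the array standard deviation, 38 genes were called in the same direction in each of 19 alternative analyses that tested them, 24 of them higher and 14 lower. Of the 38, 34 had an unadjusted p under 0.05 by limma with that covariate too. The called genes and these 38 were picked by fits of the same arrays. Their sign or unadjusted p in another fit of those arrays is therefore not independent evidence.

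**Figure D2:**
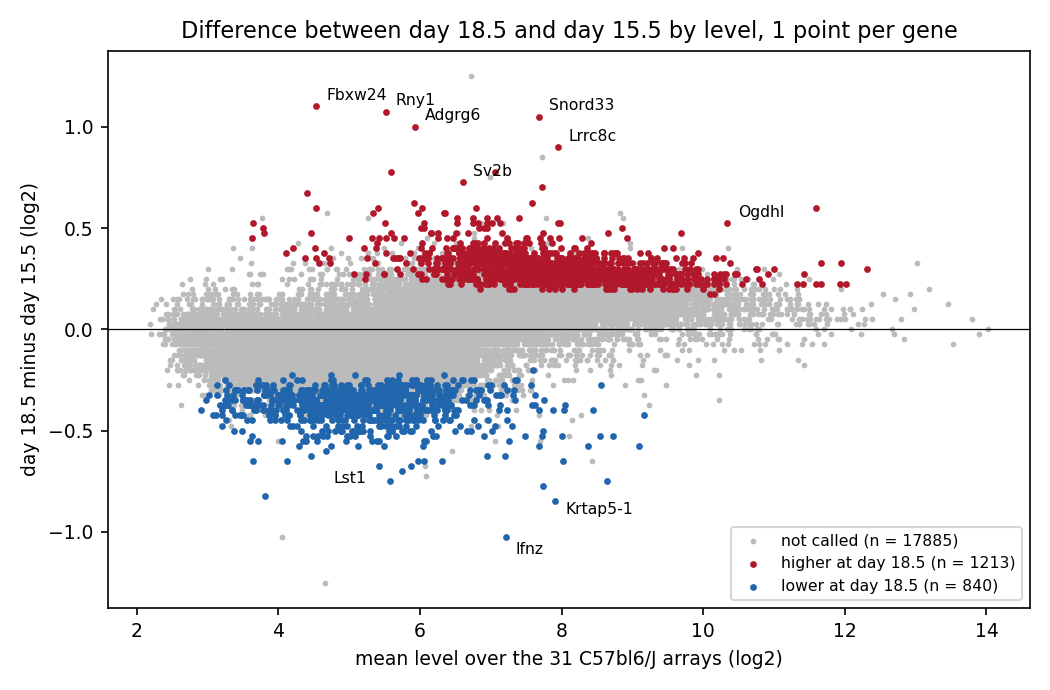
Log2 difference between day 18.5 and day 15.5 (vertical axis) against the mean log2 level over the 31 C57bl6/J arrays (horizontal axis), with 1 point per gene. The 1213 genes called higher (red) lie mostly to the right, at bright levels, and the 840 called lower (blue) mostly to the left.

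The largest rise among the called genes was that of Fbxw24, which encodes an F-box protein with WD40 repeats and lies at chr9:109601116-109626059 (GRCm38). Its levels were 6.2, 6.0, 6.2 and 6.1 in day 18.5 islets, against 5.3, 4.9, 5.0 and 4.9 in day 15.5 islets. No array of one day reached those of the other, and the difference was 1.10 ± 0.18 (log2, SE) with an adjusted p of 0.00519 by limma. It was 0.93 with the array standard deviation as a covariate (unadjusted p = 7.28e-04). Fbxw24 had already been listed as a gene raised in pregnancy from these same arrays, and its mean level was 6.13 ± 0.10 (SD, n = 4) at day 18.5, 5.03 ± 0.19 at day 15.5 and 4.55 ± 0.24 at day 12.5.

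Adgrg6, also known as Gpr126, is an adhesion G protein-coupled receptor needed for myelination by Schwann cells, at chr10:14402583-14545723. Its levels were 6.6, 6.9, 6.5 and 7.2 in day 18.5 islets, against 5.6, 5.9, 5.6 and 6.1 in day 15.5 islets. The groups were separate, with a difference of 1.00 ± 0.15 (adjusted p = 0.00279 by limma, the lowest of the genes named here), and the value with the array standard deviation as a covariate was 1.06 (unadjusted p = 1.36e-05). Its day 15.5 level minus its day 12.5 level was -0.08.

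Sv2b, a membrane glycoprotein of synaptic and secretory vesicles at chr7:75114894-75309262, showed a similar separation. Its levels were 7.7, 7.2, 7.5 and 7.5 in day 18.5 islets, against 6.9, 6.9, 6.6 and 6.6 in day 15.5 islets, a difference of 0.73 ± 0.13 (adjusted p = 0.00686 by limma). Fbxw24, Adgrg6 and Sv2b were all among the 38 genes that stayed called outside the fit with the array standard deviation. Their promoters are shown because these 3 genes had large rises that stayed called in that way; each stretch holds 300 bases around an annotated start in RefSeq GRCm38.p6, most of them upstream, and capitals mark a searched motif.

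Fbxw24 promoter (chr9:109626010-109626309, minus strand): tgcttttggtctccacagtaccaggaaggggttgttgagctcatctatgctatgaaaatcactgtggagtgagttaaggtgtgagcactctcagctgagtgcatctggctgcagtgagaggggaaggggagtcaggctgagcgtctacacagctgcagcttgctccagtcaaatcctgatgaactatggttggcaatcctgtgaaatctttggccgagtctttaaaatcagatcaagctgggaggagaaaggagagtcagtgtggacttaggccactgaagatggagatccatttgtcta
Adgrg6 promoter (chr10:14544987-14545286, minus strand): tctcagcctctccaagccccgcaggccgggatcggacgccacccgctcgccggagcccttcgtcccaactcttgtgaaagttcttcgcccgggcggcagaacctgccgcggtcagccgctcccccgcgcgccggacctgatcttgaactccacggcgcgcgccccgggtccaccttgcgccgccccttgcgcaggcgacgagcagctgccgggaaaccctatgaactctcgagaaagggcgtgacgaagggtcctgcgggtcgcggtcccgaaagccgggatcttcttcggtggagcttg
Sv2b promoter of one annotated start (chr7:75219970-75220269, minus strand): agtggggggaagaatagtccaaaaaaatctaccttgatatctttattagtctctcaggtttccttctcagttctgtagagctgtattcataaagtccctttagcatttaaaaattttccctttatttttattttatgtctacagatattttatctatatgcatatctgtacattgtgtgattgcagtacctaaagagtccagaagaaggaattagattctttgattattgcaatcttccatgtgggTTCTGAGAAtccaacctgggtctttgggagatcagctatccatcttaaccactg

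The capitals in the Sv2b stretch are a match to TTCNNNGAA, the palindrome that STAT factors bind. The same search, on both strands, used TGACGTG for ATF6 and XBP1, TTTGAA for the cell cycle homology region, TTTCGCGC for E2F and CACGTG for the E-box, none of which overlaps another here. The Fbxw24 and Adgrg6 stretches held none of the 5 motifs, and another annotated start of Sv2b held an E-box. Of the 11 genes with the largest rises that have a promoter in the table, 1 (9.09%) held the STAT motif at any of its starts, against 8.30% of all 32851 single promoters, and 1 held an E-box, against 7.15%. Sv2b was the gene in both cases, and the stretch printed is the only 1 of its 4 starts with the STAT motif. Of 9 genes with the largest falls that have a promoter, 2 (22.2%), Olfr97 and Pdyn, held the STAT motif and none held an E-box. A match describes letters and not binding.

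Other large rises were those of channels, receptors and secreted proteins. Lrrc8c, a subunit of the volume-regulated anion channel, had 8.9, 8.9, 9.1 and 9.3 in day 18.5 islets, against 8.0, 7.9, 8.1 and 8.6 in day 15.5 islets, a difference of 0.90 ± 0.21 (adjusted p = 0.0168 by limma) that was 0.49 with the array standard deviation as a covariate. Igfbp5, a secreted binding protein for insulin-like growth factors, had 8.7, 9.0, 9.0 and 8.7 in day 18.5 islets, against 8.4, 7.8, 8.0 and 8.4 in day 15.5 islets, a difference of 0.70 ± 0.14 (adjusted p = 0.00944). Chrna3, the alpha 3 subunit of nicotinic acetylcholine receptors, had 6.1, 5.8, 6.3 and 5.8 in day 18.5 islets, against 5.3, 5.1, 5.5 and 5.0 in day 15.5 islets, a difference of 0.78 ± 0.21 (adjusted p = 0.0261). In each of these genes the 4 arrays of day 18.5 stood above the 4 of day 15.5.

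Acvr1c encodes ALK7, a type I receptor of the TGF-beta family that beta cells express. It rose by 0.60 ± 0.12, with levels of 7.7, 7.7, 7.6 and 7.9 in day 18.5 islets, against 7.2, 6.8, 7.3 and 7.2 in day 15.5 islets (adjusted p = 0.00944 by limma), and by 0.32 with the array standard deviation as a covariate. Lrrc55, an auxiliary subunit of the BK potassium channel and one of the genes raised most in pregnancy on these arrays, had 9.6, 9.7, 9.6 and 9.4 in day 18.5 islets, against 8.9, 8.7, 8.9 and 9.3 in day 15.5 islets. Its day 15.5 replicate 4, at 9.3, came close to the lowest day 18.5 array, at 9.4, and the difference was 0.63 ± 0.17 (adjusted p = 0.0298), with 0.0941 after quantile normalization. Cytip, which binds cytohesins in leukocytes, rose by 0.60 ± 0.11 at a low level, with 5.1, 5.0, 5.1 and 5.3 in day 18.5 islets, against 4.6, 4.3, 4.5 and 4.7 in day 15.5 islets.

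Small RNA genes were also among the largest rises, with wider spread. The C/D box small nucleolar RNA gene Snord33 had 7.8, 8.0, 7.7 and 8.3 in day 18.5 islets, against 7.6, 6.8, 6.8 and 6.4 in day 15.5 islets, a difference of 1.05 ± 0.26 (adjusted p = 0.0211 by limma and 0.0533 after quantile normalization). Snord16a had 7.3, 7.1, 7.2 and 7.5 in day 18.5 islets, against 6.9, 6.4, 6.4 and 6.3 in day 15.5 islets, a difference of 0.78 ± 0.23 (adjusted p = 0.0374 and 0.0786 after quantile normalization). Rny1, the gene of a Y RNA, had 6.0, 5.2, 5.9 and 6.8 in day 18.5 islets, against 5.0, 4.9, 5.1 and 4.6 in day 15.5 islets, and its difference of 1.08 was 0.31 with the array standard deviation as a covariate (adjusted p = 0.0586 by limma after quantile normalization). Of 51 measured small nucleolar RNA genes, 4 (7.84%) were called higher and none lower, near the 6.08% called higher among all genes, and none was called after quantile normalization. The histone gene H3c15 (0.60) and the cyclophilin-like Ppil6 (0.60) complete the 15 largest rises together with the microRNA gene Mir1839 (0.68). H3c15 and Ppil6 were not called after quantile normalization.

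**Figure D3:**
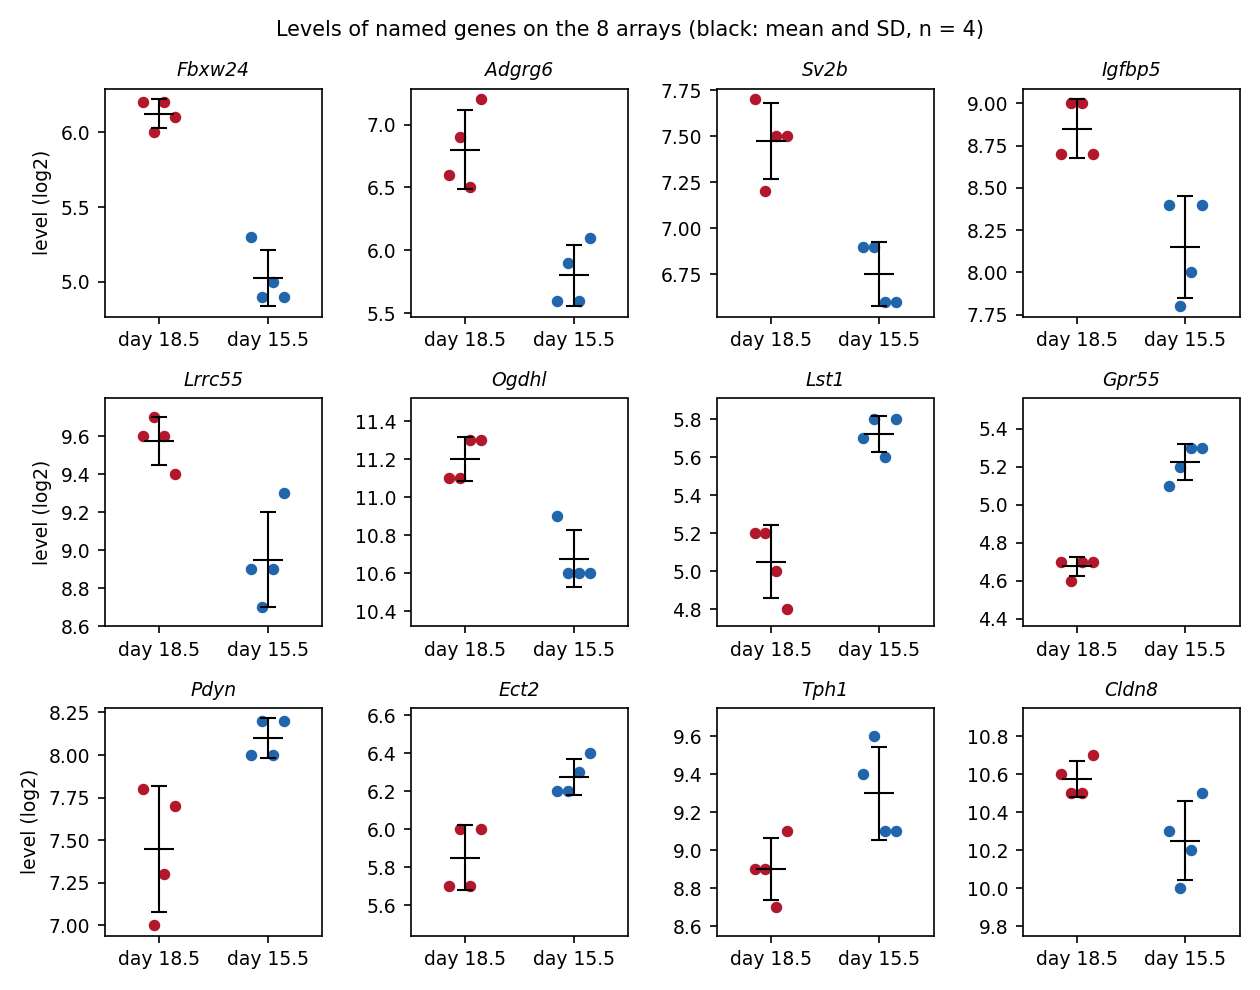
Log2 levels of 12 genes (vertical axes) on the 4 day 18.5 arrays (red, left) and the 4 day 15.5 arrays (blue, right), with black bars for the mean and SD. Fbxw24, Adgrg6, Sv2b, Igfbp5, Lrrc55 and Ogdhl were higher and Lst1, Gpr55, Pdyn and Ect2 lower at day 18.5 with no overlap, whereas Tph1 and Cldn8 shared levels between the days and were not called.

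The genes that stayed called in every alternative other than the array standard deviation included genes with smaller differences; those named here were chosen after their values were seen. Ogdhl, an oxoglutarate dehydrogenase-like mitochondrial protein and one of the brightest of them, had 11.1, 11.1, 11.3 and 11.3 in day 18.5 islets, against 10.9, 10.6, 10.6 and 10.6 in day 15.5 islets, a difference of 0.53 ± 0.10 (adjusted p = 0.00836 by limma). Tfrc, the transferrin receptor that takes up iron, had 9.2, 9.3, 9.2 and 9.2 in day 18.5 islets, against 8.9, 8.6, 8.7 and 8.9 in day 15.5 islets, a difference of 0.45 ± 0.08 (adjusted p = 0.00699). Slc7a7, a subunit of a transporter of cationic amino acids, rose by 0.48 ± 0.08 (adjusted p = 0.00647) and Ldhb, the lactate dehydrogenase B chain, by 0.45 ± 0.09 (adjusted p = 0.0107). These 4 genes had unadjusted p-values between 1.33e-04 and 0.0135 with the array standard deviation as a covariate. Ldhb has another probe set, which differed by 0.275 between the days.

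Vcl, the adhesion protein vinculin, lay at 7.2, 7.1, 7.2 and 7.3 in day 18.5 islets, against 6.9, 6.8, 6.7 and 6.8 in day 15.5 islets, a difference of 0.40 ± 0.08 that was 0.20 with the array standard deviation as a covariate. Tln2, talin 2, rose by 0.33 ± 0.07, with 0.35 under the covariate. Dsp, the desmosome protein desmoplakin, rose by 0.43 ± 0.08, with 0.25 under the covariate. Elmo1, which activates the small GTPase Rac together with a DOCK protein, rose by 0.50 ± 0.08 (adjusted p = 0.00519). Ift172, a component of the transport machinery of cilia, was at 7.4, 7.4, 7.4 and 7.4 in day 18.5 islets and at 7.1, 6.8, 7.0 and 7.0 in day 15.5 islets. Dvl3, a cytoplasmic transducer of Wnt signals (0.38), Camk1g, a calcium/calmodulin-dependent kinase (0.40), Agpat5, an acyltransferase of phospholipid synthesis (0.43), and the receptor phosphatase Ptpru (0.38) were also higher.

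Genes of keratin-associated proteins, olfactory receptors and microRNAs were among the 15 largest falls. Ifnz, an interferon zeta gene, had 7.5, 8.0, 7.5 and 6.1 in day 18.5 islets, against 8.1, 8.1, 8.5 and 8.5 in day 15.5 islets, a difference of -1.03 ± 0.31 (adjusted p = 0.0360 by limma), and its day 18.5 replicate 4 lay far below the other arrays. The Ifnz difference was -0.48 with the array standard deviation as a covariate, and after quantile normalization it was not called (adjusted p = 0.0655 by limma). The keratin-associated protein genes Krtap5-1 (-0.85), Krtap10-10 (-0.65) and Krtap1-3 (-0.63), the olfactory receptor genes Olfr767 (-0.78) and Olfr97 (-0.63), the late cornified envelope gene Lce1j (-0.63) and the pregnancy-specific glycoprotein gene Psg28 (-0.65) were also among the 15 largest falls. With the array standard deviation as a covariate the Krtap5-1 difference was -0.23, that of Krtap10-10 -0.09 and that of Krtap1-3 -0.19. Krtap10-10 and Olfr97 were not called after quantile normalization (adjusted p = 0.0786 and 0.0775 by limma). Of 44 keratin-associated protein genes 15 (34.1%) were called lower and none higher, and of 1194 olfactory and vomeronasal receptor genes 141 (11.8%) were called lower and 1 higher, against 4.21% lower among all genes. After quantile normalization 2 and 9 of them were called lower. Both families are dim, with median levels of 4.82 and 3.72, as are the genes that were mostly called lower above. Their median differences of -0.23 and -0.15 were -0.05 in both with the array standard deviation as a covariate.

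Some falls were of genes with roles in signalling or immune cells. Pdyn, the precursor of the opioid peptide dynorphin, had 7.8, 7.0, 7.3 and 7.7 in day 18.5 islets, against 8.0, 8.2, 8.0 and 8.2 in day 15.5 islets. Its difference was -0.65 ± 0.19 (adjusted p = 0.0353 by limma), and it was -0.91 with the array standard deviation as a covariate (unadjusted p = 0.00138), a larger fall than without it; after quantile normalization the adjusted p was 0.0501. Lst1, a leukocyte-expressed gene of the major histocompatibility complex, had 5.2, 5.2, 5.0 and 4.8 in day 18.5 islets, against 5.7, 5.8, 5.6 and 5.8 in day 15.5 islets, a difference of -0.68 ± 0.11 (adjusted p = 0.00383). Gpr55, a receptor for lysophosphatidylinositol, was chosen after its values were seen and had 4.7, 4.6, 4.7 and 4.7 in day 18.5 islets, against 5.1, 5.2, 5.3 and 5.3 in day 15.5 islets, a difference of -0.55 ± 0.10 (adjusted p = 0.00686). Sema4g, a semaphorin (-0.45), Treml1, a receptor of platelets (-0.50), and Scn11a, a sodium channel of sensory neurons (-0.40), were likewise lower without overlap and stayed called outside the fit with the array standard deviation.

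Of 291 microRNA genes measured, 2 were called higher and 38 (13.1%) lower, against 4.21% lower among all genes, and after quantile normalization 1 was higher and 15 lower. They are dim too, with a median level of 4.78, and their median difference of -0.13 was -0.0098 with the array standard deviation as a covariate. The mature sequences of those named here are printed from RefSeq GRCm38.p6 with the seed, bases 2 to 8, in capitals. All of these seeds differ. The probe sets are annotated to the microRNA genes, and which RNA of each locus they report was not tested.

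mmu-miR-1839-5p: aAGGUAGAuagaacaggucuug
mmu-miR-17-5p: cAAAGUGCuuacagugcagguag
mmu-miR-17-3p: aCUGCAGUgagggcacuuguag
mmu-miR-194-5p: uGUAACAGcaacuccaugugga
mmu-miR-194-2-3p: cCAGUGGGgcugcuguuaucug
mmu-miR-680: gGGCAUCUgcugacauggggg

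Mir1839 rose, with 4.2, 4.4, 4.7 and 4.8 in day 18.5 islets, against 3.8, 3.8, 3.9 and 3.9 in day 15.5 islets (adjusted p = 0.0185 by limma). Mir17, a member of a cluster of microRNAs that promotes proliferation, was lower, with 4.3, 4.6, 4.4 and 4.1 in day 18.5 islets, against 4.8, 5.2, 5.0 and 4.8 in day 15.5 islets, a difference of -0.60 ± 0.13 (adjusted p = 0.0135) that was -0.14 with the array standard deviation as a covariate. Mir194-2, chosen after its values were seen, had 7.6, 7.7, 7.8 and 7.7 in day 18.5 islets, against 8.1, 8.4, 8.2 and 8.2 in day 15.5 islets, a difference of -0.53 ± 0.10 (adjusted p = 0.00699), and it stayed called outside that fit; in it, the difference was -0.22. The difference was -0.75 ± 0.18 for Mir680-2, with -0.24 under the covariate. It was -0.65 ± 0.17 for Mir297b, which was not called after quantile normalization (adjusted p = 0.0709 by limma). The poorly characterised loci Gm10782 (-0.70) and A530040E14Rik (-0.65) complete the 15 largest falls.

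Several genes known to mark the pregnant islet were not called in this interval. Tph1, which makes serotonin, had 8.9, 8.9, 8.7 and 9.1 in day 18.5 islets, against 9.4, 9.6, 9.1 and 9.1 in day 15.5 islets, a difference of -0.40 ± 0.22 that was not called (adjusted p = 0.191 by limma), and both days shared the level 9.1. Tph2, the second tryptophan hydroxylase, differed by 0.13 ± 0.13, and Matn2, a matrix protein, by 0.18 ± 0.12. Cldn8, a claudin of tight junctions, had 10.6, 10.5, 10.5 and 10.7 in day 18.5 islets, against 10.3, 10.0, 10.2 and 10.5 in day 15.5 islets, a difference of 0.33 ± 0.18 (adjusted p = 0.191). Tnfrsf11b, osteoprotegerin, averaged 8.28 ± 0.36 (SD, n = 4) at day 18.5 and 8.28 ± 0.13 at day 15.5. Of 15 genes listed as raised in pregnant islets by an earlier analysis of these same arrays, 5 (33.3%) were called higher and none lower, against 6.08% higher among all genes: Fbxw24, Lrrc55, Neb (nebulin, 0.43 ± 0.11), Derl3 (0.43 ± 0.09) and Ivd (isovaleryl-CoA dehydrogenase, 0.30 ± 0.10). That list was chosen on these samples and is not independent evidence of its direction, and after quantile normalization 1 of the 15 was called.

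**Figure D4:**
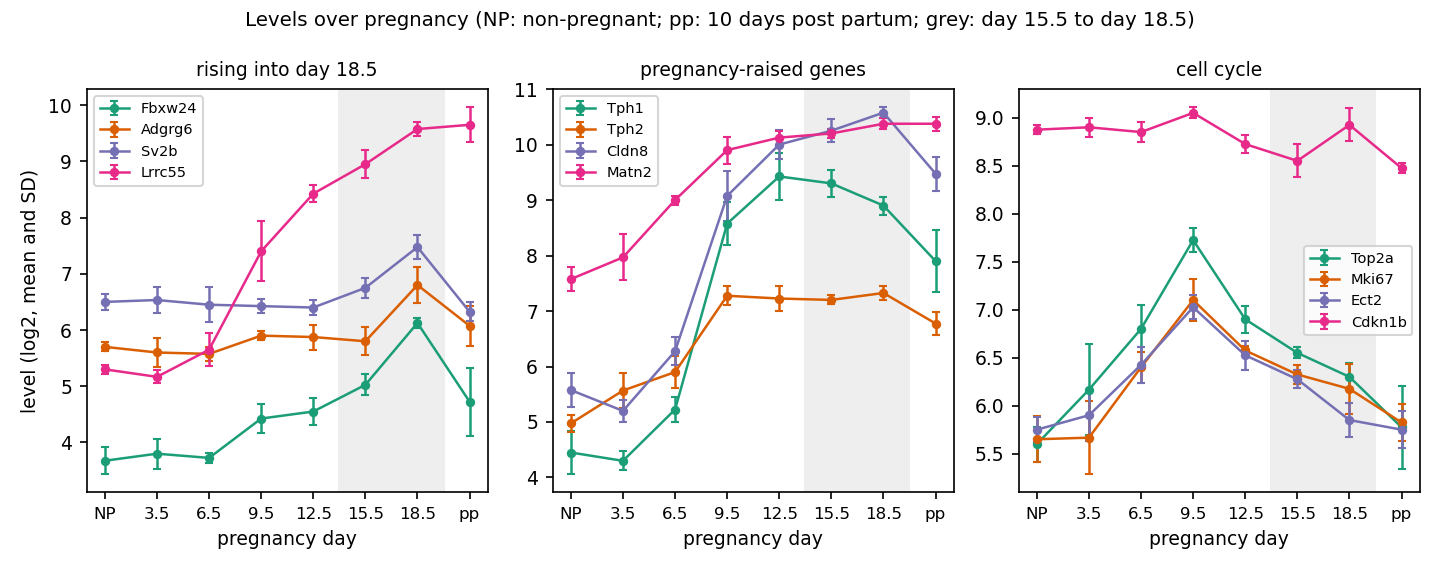
Mean log2 level with SD (vertical axes) in the 8 C57bl6/J groups in order of time (horizontal axes), for genes that rose into day 18.5, genes raised in pregnancy and cell cycle genes. Fbxw24, Adgrg6 and Sv2b peak at day 18.5, Tph1 does not rise after day 12.5, and Top2a, Mki67 and Ect2 lie below their day 9.5 means.

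In lactogen signalling, the feedback inhibitors that STAT5 induces were not called: Cish had 9.9, 10.0, 10.1 and 10.0 in day 18.5 islets, against 9.9, 10.0, 9.9 and 9.9 in day 15.5 islets (0.08 ± 0.20, adjusted p = 0.803 by limma), and Socs2 had 9.7, 9.7, 9.8 and 9.9 in day 18.5 islets, against 9.6, 9.4, 9.6 and 9.6 in day 15.5 islets (0.23 ± 0.11, adjusted p = 0.156). Of 22 measured genes of this list 4 (18.2%) were called higher and none lower, against 6.08% higher among all genes. They were Igf1r, the receptor of insulin-like growth factor 1 (8.9, 9.0, 8.9 and 8.8 in day 18.5 islets, against 8.6, 8.4, 8.6 and 8.5 in day 15.5 islets), Socs4 (0.38 ± 0.10), the transcription factor Stat3 (0.23 ± 0.07) and Socs6 (0.23 ± 0.07). None of the 4 was called after quantile normalization. Stat3 stood at 9.8 on all 4 day 18.5 arrays.

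Serotonin receptors gave a mixed picture. Htr3a, the serotonin-gated ion channel of beta cells, had 6.5, 6.2, 6.4 and 6.2 in day 18.5 islets, against 5.8, 6.0, 5.9 and 5.6 in day 15.5 islets, a difference of 0.50 ± 0.17 with an adjusted p of 0.0497, next to the threshold. Htr2b, the receptor linked to beta-cell division in pregnancy, had 4.4, 4.5, 4.2 and 4.5 in day 18.5 islets, against 4.8, 4.6, 4.8 and 4.8 in day 15.5 islets, a difference of -0.35 ± 0.10 (adjusted p = 0.0351 by limma). Htr2a (-0.35 ± 0.09), Htr1d, the receptor linked to the end of that division (-0.30 ± 0.09), and Htr5b (-0.35 ± 0.12) were also called lower. In all, 1 of 22 genes of serotonin synthesis, transport and reception was higher and 4 (18.2%) were lower, against 4.21% lower among all genes, and after quantile normalization none was called either way. The list is dim, with a median level of 5.37. Of the 4985 genes with mean levels from 4.93 to 6.25, 387 were called lower and 68 higher. The list's median difference of -0.19 was -0.08 with the array standard deviation as a covariate. Among steroid receptors and glucocorticoid targets, 1 of 19 was called higher, the transcription factor Klf9 (0.38 ± 0.12), and 1 lower, Hsd11b1, which regenerates active glucocorticoid (-0.28 ± 0.08).

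Of 31 mitosis genes measured, 29 had a difference below 0. Of the 31, 2 (6.45%) were called lower and none of the list higher, near the 4.21% called lower among all genes, and none was called after quantile normalization. For the list the median difference was -0.20, against 0.03 over all genes; it was -0.09 after quantile normalization and -0.28 with the array standard deviation as a covariate. The list's median level was 5.52. The 4985 genes with mean levels from 4.93 to 6.25 had a median difference of -0.13. For those genes it was -0.01 after quantile normalization and 0.04 with the covariate. Ect2, a guanine nucleotide exchange factor needed for cytokinesis, had 5.7, 6.0, 5.7 and 6.0 in day 18.5 islets, against 6.2, 6.2, 6.3 and 6.4 in day 15.5 islets, a difference of -0.43 ± 0.11 (adjusted p = 0.0257 by limma) that was -0.61 with the covariate (unadjusted p = 1.60e-04). Ube2c, the ubiquitin-conjugating enzyme of the anaphase-promoting complex, had 5.8, 6.0, 6.0 and 5.8 in day 18.5 islets, against 6.1, 6.2, 6.2 and 6.4 in day 15.5 islets, a difference of -0.33 ± 0.10 (adjusted p = 0.0409). The proliferation markers Mki67, with 6.0, 6.4, 5.9 and 6.4 in day 18.5 islets, against 6.4, 6.3, 6.2 and 6.4 in day 15.5 islets, and Top2a, with 6.2, 6.3, 6.2 and 6.5 in day 18.5 islets, against 6.6, 6.5, 6.5 and 6.6 in day 15.5 islets, were not called (adjusted p = 0.432 and 0.264). The Top2a difference of -0.25 was -0.64 with the covariate (unadjusted p = 0.00248). Another probe set of Top2a differed by only -0.025 between the days.

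Calls in the lists of this paragraph are read against the 6.08% called higher and 4.21% called lower among all genes. In the DNA replication list 2 of 29 genes (6.90%) were called lower, near that share, and none higher. None of the list was called after quantile normalization. Its median was -0.10, which was -0.09 after quantile normalization and -0.15 with the array standard deviation as a covariate. The 2 called genes are named next. They were Uhrf1, which guides DNA methylation at replication forks (-0.40 ± 0.12), and the replication licensing factor Cdt1 (-0.30 ± 0.09). Among the regulators of entry into the cycle, Cdkn1b, the inhibitor p27, had 9.0, 8.7, 8.9 and 9.1 in day 18.5 islets, against 8.7, 8.3, 8.6 and 8.6 in day 15.5 islets, a difference of 0.38 ± 0.08 (adjusted p = 0.0151 by limma and 0.0368 after quantile normalization). The groups met at 8.7, and the difference was 0.12 with the array standard deviation as a covariate. Cyclin D1 (Ccnd1, 0.30 ± 0.10) and Mdm2, which restrains p53 (0.30 ± 0.07), were higher too, and Cdkn2a, which encodes p16 and p19ARF, was lower (-0.33 ± 0.08), so 3 of 21 genes of this list (14.3%) were higher and 1 lower, and 13 of the 21 lay above 0. After quantile normalization 1 of them was called. Of 17 apoptosis and survival genes Mcl1, a survival protein, was higher (0.30 ± 0.07) and the death receptor Tnfrsf10b lower (-0.33 ± 0.09). That is 5.88% each way, near the shares of all genes.

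Of 27 genes of chaperones and degradation in the endoplasmic reticulum, 26 had a difference above 0 and 3 (11.1%) were called, all higher, against 6.08% among all genes; the median was 0.13, it was 0.05 after quantile normalization, and with the array standard deviation as a covariate it was -0.02. None was called after quantile normalization. The list is bright, with a median level of 10.1. Of the 4985 brightest genes 676 were called higher, with a median difference of 0.15, so the counts of this list do not stand out from genes of like level. Derl3, a component of the degradation channel, had 8.2, 8.0, 8.1 and 8.3 in day 18.5 islets, against 7.8, 7.7, 7.8 and 7.6 in day 15.5 islets (adjusted p = 0.0151 by limma). The stress sensor Ern1, also known as IRE1 alpha, differed by 0.28 ± 0.09 and the degradation adaptor Sel1l by 0.23 ± 0.07. Among 32 genes of translocation and export, where 6.25% were called higher, the coat protein Sec24d (0.38 ± 0.10) and the signal recognition receptor subunit Srprb (0.30 ± 0.08) were higher and the translocon subunit Sec61b (-0.28 ± 0.08) lower. None of 22 genes of the PERK and ATF4 response was called; the largest differences were those of Aldh1l2 (0.30, adjusted p = 0.110) and of Eif2ak3, which encodes PERK (0.28, adjusted p = 0.0595).

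Heat shock proteins of the cytosol fold new and damaged proteins. Of 15 measured genes of this group, 5 (33.3%) were called higher and none lower, against 6.08% higher among all genes, and 14 lay above 0. Hsph1, the nucleotide exchange factor HSP110, had 9.6, 9.5, 9.7 and 9.6 in day 18.5 islets, against 9.1, 9.0, 9.3 and 9.1 in day 15.5 islets, a difference of 0.48 ± 0.15 (adjusted p = 0.0394 by limma). Hspa8, the constitutive HSP70, had 11.9 to 12.1 in day 18.5 islets, against 11.6 to 11.8 in day 15.5 islets, a difference of 0.33 ± 0.10. The co-chaperone Dnajb1 (0.38 ± 0.12) and the HSP110 relatives Hspa4l (0.30 ± 0.09) and Hspa4 (0.28 ± 0.09) were the others. The list's median of 0.23 was 0.16 after quantile normalization, where none was called, and 0.04 with the array standard deviation as a covariate. Its genes are bright, with a median level of 9.11, and the brightest genes were mostly called higher. The same list had a median of -0.20 in the preceding interval, from day 12.5 to day 15.5, which shares the day 15.5 arrays.

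Calls among metabolic genes are read against the 6.08% called higher and 4.21% called lower among all genes. None of 32 oxidative phosphorylation genes was called, Ndufb9 (0.25, adjusted p = 0.0725 by limma) and Uqcrc1 (0.20, adjusted p = 0.0889) having the largest values, and none of 24 cytosolic ribosomal protein genes. Of 34 mitochondrial ribosomal protein genes 1 was called, Mrps30 (0.35 ± 0.11), whose difference was -0.02 with the array standard deviation as a covariate. In the cholesterol list all 23 measured genes lay above 0 and 4 (17.4%) were called higher: Idi1 (0.40 ± 0.12), Hmgcs1 (0.33 ± 0.10) and Cyp51 (0.28 ± 0.09) of the synthesis pathway and Npc1, which moves cholesterol out of lysosomes (0.25 ± 0.07). None of the 4 was called after quantile normalization. With the covariate 16 of the 23 lay above 0 and Cyp51 was at -0.0037. The list is bright, with a median level of 8.18 and a median difference of 0.13. Of the 4985 brightest genes 676 were called higher, with a median difference of 0.15. Hmgcs1 had 8.5, 8.5, 8.6 and 8.7 in day 18.5 islets, against 8.3, 8.0, 8.3 and 8.4 in day 15.5 islets.

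Of 20 genes of branched-chain amino acid breakdown, 3 were called higher, Ivd, Acadsb (0.30 ± 0.08) and Mccc1 (0.28 ± 0.08), and none of the 20 was called after quantile normalization. Ivd, the brightest of them, had 11.8, 11.9, 11.9 and 11.9 in day 18.5 islets, against 11.6, 11.6, 11.5 and 11.6 in day 15.5 islets, and its difference was 0.37 with the array standard deviation as a covariate (unadjusted p = 0.00838). Fatty acid synthesis and oxidation gave 2 higher calls of 24 (8.33%), Acly, which makes cytosolic acetyl-CoA (0.23 ± 0.07), and Hadha, of mitochondrial beta oxidation (0.20 ± 0.06). Aldoa, aldolase A, was the single call among 20 glycolysis and glucose sensing genes (0.28 ± 0.07).

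None of 22 transcription factors of the beta cell was called, against 10.3% of all genes, and the largest differences were those of Isl1 (0.23, adjusted p = 0.0522 by limma) and Neurog3 (-0.23, adjusted p = 0.0839). Mafa, an activator of the insulin gene, had 8.9, 8.7, 8.8 and 8.7 in day 18.5 islets, against 8.9, 8.4, 8.7 and 8.9 in day 15.5 islets. Ucn3, a marker of mature beta cells, had 10.8, 10.6, 10.7 and 10.7 in day 18.5 islets, against 10.6, 10.4, 10.7 and 10.7 in day 15.5 islets, and the glucose transporter Slc2a2 had 11.7, 11.8, 11.8 and 11.8 in day 18.5 islets, against 11.8, 11.7, 11.7 and 11.7 in day 15.5 islets. All 3 overlapped between days, with differences of 0.05 ± 0.12, 0.10 ± 0.08 and 0.05 ± 0.07. Of 25 insulin granule and maturity genes, Rab3a, a GTPase of granule exocytosis (0.28 ± 0.08), and the granule membrane protein Ptprn2 (0.25 ± 0.06) were called higher, a share near the 6.08% of all genes. That list is bright, with a median level of 10.9, and of the 4985 brightest genes 676 were called higher.

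Channels and receptors of insulin secretion gave 4 higher calls of 22 (18.2%), Lrrc55 among them, against 6.08% among all genes. After quantile normalization none of the 22 was called. The list is bright, with a median level of 8.57, and of the 4985 brightest genes 676 were called higher. Abcc8, the sulphonylurea receptor of the ATP-sensitive potassium channel, had 11.4, 11.5, 11.5 and 11.5 in day 18.5 islets, against 11.3, 11.2, 11.1 and 11.2 in day 15.5 islets, a difference of 0.28 ± 0.07 (adjusted p = 0.0191 by limma), and 0.25 with the array standard deviation as a covariate (unadjusted p = 0.00522). Glp1r, the receptor of the incretin GLP-1, had 11.9, 11.9, 11.8 and 11.8 in day 18.5 islets, against 11.8, 11.5, 11.6 and 11.6 in day 15.5 islets, a difference of 0.23 ± 0.07 (adjusted p = 0.0496), with overlapping arrays. Protein kinase C alpha (Prkca) differed by 0.28 ± 0.08. Rgs2, a brake on G protein signalling, had 7.4, 7.2, 7.3 and 7.8 in day 18.5 islets, against 7.3, 7.1, 7.3 and 6.7 in day 15.5 islets and was not called (adjusted p = 0.385). Of 17 genes of the other islet hormones and cells, gastrin (Gast) was called lower (-0.28 ± 0.09), and of 20 genes normally low in beta cells the transcription factor Nfib was called higher (0.38 ± 0.11).

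Single members of other programmes were called, where 6.08% of all genes were called higher and 4.21% lower. Bhlhe41, a repressor of the circadian clock, had 8.9, 8.7, 8.7 and 8.9 in day 18.5 islets, against 8.5, 8.0, 8.3 and 8.5 in day 15.5 islets, a difference of 0.48 ± 0.11 (adjusted p = 0.0151 by limma and 0.0361 after quantile normalization), and it was 1 of 17 clock genes. It was 0.09 with the array standard deviation as a covariate. Egr3 was 1 of 29 immediate-early genes and was lower, with 6.6, 6.7, 6.7 and 6.8 in day 18.5 islets, against 7.0, 7.0, 7.0 and 7.0 in day 15.5 islets. Igf2r, an imprinted receptor, was 1 of 18 imprinted genes and was higher (0.28 ± 0.08). Nlrc5, the activator of class I antigen presentation, was 1 of 25 interferon and antigen presentation genes and was lower (-0.43 ± 0.14), a direction that reversed to 0.09 with the covariate. The epithelial keratins Krt7 (0.33 ± 0.09) and Krt18 (0.33 ± 0.10) were higher in a list of 13, while Reg3b, with 5.0, 5.1, 4.9 and 3.9 in day 18.5 islets, against 5.5, 5.7, 5.5 and 7.2 in day 15.5 islets, was not called (adjusted p = 0.0999).

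**Figure D5:**
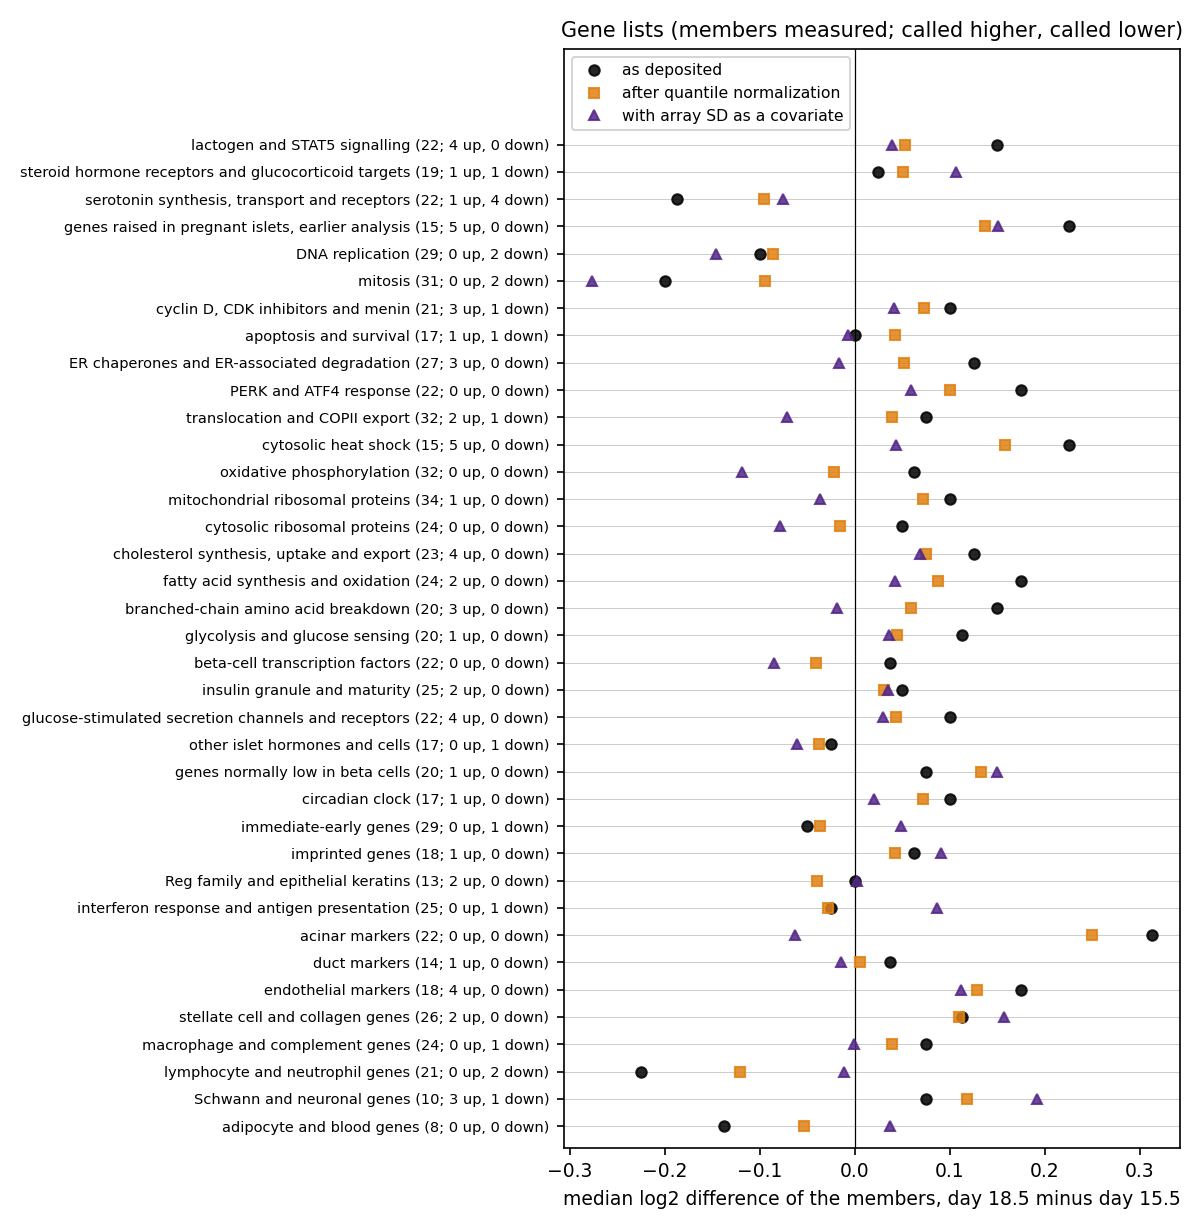
Median log2 difference of the members of 37 gene lists between day 18.5 and day 15.5 (horizontal axis), as deposited (black), after quantile normalization (orange) and with the standard deviation of each array as a covariate (purple), with the number measured and the numbers called beside each name. The mitosis and DNA replication medians are below 0 in all 3 analyses, as are those of the serotonin, other islet hormone, and lymphocyte and neutrophil lists. The acinar median changes from 0.31 to -0.06.

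Markers of other cells in or around the islet were counted in the same way. Of 18 endothelial markers 4 (22.2%) were called higher and none lower, against 6.08% higher among all genes, and none was called after quantile normalization: the vascular endothelial growth factor receptors Kdr, with 9.3, 9.4, 9.2 and 9.4 in day 18.5 islets, against 9.1, 8.9, 8.8 and 9.2 in day 15.5 islets, and Flt1 (0.28 ± 0.08), the angiopoietin receptor Tek (0.33 ± 0.10) and the junction protein Esam (0.28 ± 0.08). The list's median was 0.18, with 0.13 after quantile normalization and 0.11 with the array standard deviation as a covariate, and its mean level ran from 7.59 to 7.67 at day 18.5 and from 7.43 to 7.61 at day 15.5. In the stellate cell and collagen list 2 of 26 were higher, Thy1 (0.43 ± 0.14) and Timp3 (0.38 ± 0.11). In the Schwann and neuronal list 3 of 10 (30.0%) were higher and 1 lower, and after quantile normalization 1 was called. The neuronal filament protein Prph had 7.6, 7.5, 7.4 and 7.2 in day 18.5 islets, against 7.0, 6.9, 6.8 and 6.8 in day 15.5 islets. The neuronal tubulin Tubb3 had 7.8, 7.6, 7.7 and 7.7 in day 18.5 islets, against 7.3, 6.9, 7.2 and 7.2 in day 15.5 islets. The Schwann lineage cadherin Cdh19 had 4.5, 4.1, 3.9 and 4.0 in day 18.5 islets, against 3.7, 3.5, 3.6 and 3.8 in day 15.5 islets. These 3 were the higher ones, and the glial protein S100b was lower (-0.25 ± 0.08). The mean level of that list was 6.04 to 6.18 at day 18.5 and 5.93 to 5.99 at day 15.5. The part of endothelial or neuronal RNA in the other results was not tested.

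Acinar markers, which measure exocrine tissue carried over with the islets, varied between arrays of 1 day more than between days. Their mean level was 8.26 to 9.51 at day 18.5, the lowest being replicate 4, and 8.23 to 9.73 at day 15.5, the highest being replicate 4. None of 22 was called; the largest differences were those of Gp2 (0.55, adjusted p = 0.443 by limma) and Pnliprp1 (0.55, adjusted p = 0.600). With the acinar mean as a covariate 1630 genes were called. Macrophage and complement genes had 1 lower call of 24, Mrc1 (-0.38 ± 0.10), and lymphocyte and neutrophil genes 2 of 21, Cd2 (-0.35 ± 0.11) and Cd22 (-0.33 ± 0.10), all dim. Among all genes 4.21% were called lower. Krt7 was the single duct marker called of 14, and no adipocyte or blood gene of 8 was called, Alas2 having the largest value (-0.33, adjusted p = 0.0600).

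Whether these 3 days differed from the 3 days before was tested directly, as the difference between the step from day 15.5 to day 18.5 and the step from day 12.5 to day 15.5. In the earlier step limma called 0 genes (0.0%), with 2347 at an unadjusted p under 0.05. The difference of the steps was called for 299 genes (1.5%), 155 more positive and 144 more negative in the later step. It was called for 31 genes after quantile normalization and for none with the array standard deviation as a covariate. The day 15.5 arrays enter both steps with opposite sign, and without day 15.5 replicate 2 or replicate 3 no gene was called. Without day 12.5 replicate 2, or without day 18.5 replicate 3 or replicate 4, the difference was called for 4, 4 and 10 genes. Snord33 had a difference of 2.25 between the steps (adjusted p = 0.0334 by limma), being -1.20 in the earlier step and 1.05 in the later one. Snord16a had 1.78, the zinc finger gene Zfp974 1.18, Snord104 1.18 and Mir1839 1.13. For Adgrg6 it was 1.08 (adjusted p = 0.0392), for Cdkn1b 0.55 (adjusted p = 0.0448) and for Abcc8 0.53 (adjusted p = 0.0373).

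Among the called genes, the most negative differences between the steps were those of Gm5662 (-1.40), Krtap5-1 (-1.33), Olfr320 (-1.30), Mir680-2 (-1.28) and A530040E14Rik (-1.20). For Fbxw24 and Sv2b the later step exceeded the earlier one by 0.63 and 0.38, and neither was called (adjusted p = 0.197 and 0.261 by limma). Lrrc55 moved by 0.63 in the later step and 0.53 in the earlier one.

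Many of these genes were also compared with their levels 10 days after birth. That comparison shares the day 18.5 arrays, and limma called 6014 genes (30.2%) in it. The post partum level minus the day 18.5 level was -1.40 for Fbxw24 (adjusted p = 2.41e-05 by limma), -1.15 for Sv2b (adjusted p = 3.32e-06), -0.73 for Adgrg6 (adjusted p = 0.00129) and -0.78 for Igfbp5 (adjusted p = 4.39e-04), so all 4 were lower after birth. Lrrc55 (0.08, adjusted p = 0.751), Tfrc (-0.05, adjusted p = 0.648) and Igf1r (-0.05, adjusted p = 0.677) were not called across birth. Of the genes not called before birth, Cldn8 was lower post partum, with a difference of -1.10 (adjusted p = 2.15e-04), and Tph1 fell by 1.00 (adjusted p = 0.00204).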

How the data were processed

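The deposited values are log2 levels that the authors made with RMA in Affymetrix Expression Console, per the submitters' processing notes; which arrays were normalized together is not given in the sources used here. They carry 1 decimal and run from 1.7 to 14.5. Of 35556 probe sets, 21789 had 1 gene symbol, 1621 several and 12146 none; each of 19938 genes was read from 1 probe set, its brightest by the mean of the 39 arrays. Signal over background and 4 arrays a day limit the precision.

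One limma 3.58.1 model (lmFit, eBayes; R 4.3.3) of the 31 C57bl6/J arrays gave the contrast day 18.5 minus day 15.5 and the difference from the step before, tested two-sided at 0.05 after Benjamini-Hochberg adjustment across the whole table. On simulated data with 100 genes changed by 1 and 100 by 0.5 on the log2 scale, 100% and 81% were recovered, and 5 of 186 calls were unchanged genes. The simulated noise was independent for each gene on each array, without a spread shared by the genes of an array. In the real data that spread moved with the contrast, so the simulation does not give their rate of false calls. Tables, figures and motif searches ran in Python 3.11.15 with matplotlib 3.10.9, pandas 2.3.3, scipy 1.17.1 and numpy 2.4.6.

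Named genes are the 15 largest rises and falls without overlap, up to 4 called members each way of 37 lists (884 members, 800 measured, the rest not analysed here; the 2 largest where none was called), the 5 largest step differences each way, and some pregnancy and beta-cell genes; others are said to be chosen afterwards. The comparison and the lists were chosen with earlier results of these data known. Alternatives were filters on dim genes, quantile normalization, centring, eBayes settings, array weights, the rule for probe sets, acinar level, array standard deviation, replicate number as a block, other sets of arrays and each replicate left out. Replicate numbers did not pair the arrays.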

Additional observations from a re-analysis of the deposited data

Results flagged for a closer look

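With 4 arrays a group, Dixon's test marked an array far from the other 3 in 7 of 310 gene groups tested (gaps of at least 0.3). The critical value alone marks about 1 in 20 by chance. The minimum gap can only lower that rate, by an amount that was not estimated. The marked levels were 6.9 for Snord16a in day 15.5 replicate 1, 5.1 for Krtap10-10 in day 18.5 replicate 4, 10.9 for Ogdhl in day 15.5 replicate 1, 5.4 for Slc7a7 in day 15.5 replicate 2, 9.6 for Nlrc5 in day 15.5 replicate 2, and 3.9 for Reg3b in day 18.5 replicate 4 and 7.2 in day 15.5 replicate 4.

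The step from day 15.5 to day 18.5 differed from the step before it, by limma's test of the difference itself, for the genes given here. The difference was positive for Snord33 (2.25), Snord16a (1.78), Snord104 (1.18), Zfp974 (1.18), Mir1839 (1.13), Adgrg6 (1.08), Cytip (0.70), Ift172 (0.68), Socs4 (0.68), Ogdhl (0.65), Ldhb (0.65), Vcl (0.63), Agpat5 (0.58), Cdkn1b (0.55), Abcc8 (0.53), Dvl3 (0.50), Ptpru (0.50) and Mcl1 (0.45). It was negative for Gm5662 (-1.40), Krtap5-1 (-1.33), Olfr320 (-1.30), Mir680-2 (-1.28), A530040E14Rik (-1.20), Psg28 (-1.18), Gm10782 (-0.98), Mir17 (-0.95), Lst1 (-0.93), Lce1j (-0.90), Gpr55 (-0.83), Treml1 (-0.83), Sema4g (-0.70), Mir194-2 (-0.68), Htr2a (-0.60) and Scn11a (-0.60). With quantile normalization the difference was called for 31 genes in all, against 299 without it, and with the array standard deviation as a covariate for none. All of these contrasts use the 4 day 15.5 arrays with opposite sign in the 2 steps.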

How the results depend on the processing

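The 2053 calls (1213 higher, 840 lower) and the 299 calls of the difference between steps depended on the processing. They were 228 (157 higher, 71 lower) and 31 after quantile normalization, 803 (247, 556) and 177 with arrays centred on their medians, 3549 (2175, 1374) and 1168 with array weights, and 0 (0, 0) and 0 with the array standard deviation as a covariate. With the 8 arrays alone there were 1078 calls (565, 513). Without the dimmest 50% of genes, an alternative chosen after seeing the data, 2274 were called (2057, 217), with 772 for the difference between steps, which was 649 with trend and robust settings and 159 with all 39 arrays. Without the dimmest 25% the split was 1625 higher and 668 lower. Leaving out 1 replicate gave 68 to 2703 calls, 37 to 1637 higher and 31 to 1066 lower, and 0 to 739 for the difference between steps. Filtering the dimmest 25%, mean or separate probe sets and the acinar covariate kept the call count within 1.5 times. With the replicate block there were 2085 calls (1233, 852) and 256; same-numbered arrays correlated at -0.02 to 0.29, only 1 of 4 pairs over 0.1, and 1 of 4 day 18.5 arrays was closest to its own number, so the block is not a pairing. Of 166 named genes, 76 lost their call after quantile normalization, 129 with the array standard deviation and 13 to 92 with 1 replicate left out, in the same direction. With the array standard deviation, 3 of the called named genes reversed: Cyp51 (-0.0037), Mrps30 (-0.019) and Nlrc5 (0.087). Some named genes that were not called also changed sign, such as Rgs2 (0.33 to -0.11), Socs2 (0.23 to -0.07) and Mafa (0.05 to -0.18). The cause was not tested. Array signal over background limits what can be said of dim genes.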
